A study of Mus musculus with 2 samples.

Results

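The genes described here are the 8 matrix metalloproteinase (Mmp) and inhibitor genes Mmp8, Mmp9, Mmp12, Mmp14, Mmp19, Timp1, Timp2, and Adam8, taken by name from the 23946 genes of the count tables. All 8 were detected in both libraries. The cells were live CD45+ leukocytes sorted from the hearts of WT female C57BL6 mice 24 hours after an i.p. injection of isoproterenol (ISO), a β-adrenergic agonist, at 200 mg/kg, or of PBS as the vehicle control. The library labelled TTS, for takotsubo syndrome, is called ISO here, and the label gives the ISO dose for both samples, so the control was identified from its title. The labels give no age. The cells of 3 hearts were pooled into 1 10x Genomics library per group, and collagenase digestion preceded the sort. With 1 library per group there is no replicate, so no test was made and no p-value is given.

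Metalloproteinases of the Mmp family are zinc-dependent endopeptidases that are made as inactive proenzymes and cleave collagens, elastin, fibronectin, and other components of the extracellular matrix. Tissue inhibitors of metalloproteinases (Timps) bind the active site of Mmps, so that proteolysis depends on the ratio of enzyme to inhibitor. In the heart, leukocytes bring several of these genes: neutrophils carry Mmp8 and Mmp9 in their granules, and macrophages make Mmp12, Mmp14, and Timps. Adam8 is a transmembrane protease of leukocytes that sheds surface proteins, and it is not inhibited by Timps in the way that Mmps are. The libraries measure transcripts, and neither protein nor enzyme activity.

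After the cell filters of the study, 5641 control and 5437 ISO cells were kept, with a median of 4790 and 8537 unique molecular identifiers (UMIs) per cell. At least 1 UMI of Ptprc, the gene of CD45, was found in 91.0% and 88.8% of them, and 15 barcodes occurred in both libraries. Cells were put into classes by the summed CPM of marker genes, none of which is a gene described here, and a class is called "-like" for that reason. The classes used most are resident macrophage-like cells (819 control and 215 ISO cells), infiltrating macrophage-like cells (189 and 1627), monocyte-like cells (74 and 1584), neutrophil-like cells (117 and 92), and DC-like cells (167 and 439). Barcodes with markers of 2 lineages made up 21.4% of control and 16.3% of ISO cells and were kept apart. Levels are CPM of the UMIs summed over the cells of a class. Each UMI stands for 1 molecule tagged at its 3′ end, so levels were compared between genes without a correction for length. Intervals are 95% intervals, exact Poisson for CPM and exact Clopper-Pearson for shares, and they cover counting error only. A log2 ratio compares ISO with control CPM after adding 0.5 UMI.

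On GRCm38, Mmp8 lies at chr9:7558456-7568485, Mmp9 at chr2:164940780-164955850, Mmp12 at chr9:7344381-7369499, Mmp14 at chr14:54431612-54445364, and Mmp19 at chr10:128790910-128800824, all on the plus strand. The inhibitor Timp1 lies at chrX:20870166-20874735 on the plus strand, inside Syn1, a neuronal gene of the opposite strand. Timp2 lies at chr11:118301069-118355740 and Adam8 at chr7:139978932-139992562, both on the minus strand. How the counting treated strand is not given in the sources used here, and Syn1 itself held 13 control and 165 ISO UMIs. Both inhibitors are shown by the 250 bases before their RefSeq start site on GRCm38.p6, because over all kept cells Timp1 was higher and Timp2 lower in the ISO library. The capitals mark AGGAAG, which holds the GGAA core bound by Ets factors.
Timp1 (chrX:20869916-20870165, plus strand): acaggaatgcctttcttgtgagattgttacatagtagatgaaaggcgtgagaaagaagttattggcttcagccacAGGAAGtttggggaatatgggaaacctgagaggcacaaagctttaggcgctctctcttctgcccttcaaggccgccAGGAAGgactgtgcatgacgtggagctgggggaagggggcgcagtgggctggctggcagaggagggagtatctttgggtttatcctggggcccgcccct
Timp2 (chr11:118355412-118355661, minus strand): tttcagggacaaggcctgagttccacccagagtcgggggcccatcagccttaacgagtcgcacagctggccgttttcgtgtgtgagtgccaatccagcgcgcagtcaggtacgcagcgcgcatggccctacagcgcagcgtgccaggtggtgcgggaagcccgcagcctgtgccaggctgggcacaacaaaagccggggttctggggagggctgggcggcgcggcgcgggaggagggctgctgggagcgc
The words searched on both strands were AGGAAG, the AP-1 site spelled TGANTCA, its variant spelled TGANTAA, and the TATA box spelled TATAAA, and the matches in these windows did not overlap. The Timp1 window held AGGAAG at 175 and 99 bases before the start and none of the other motifs. Of 32851 promoters of this length, 29.5% held AGGAAG at least once and 6.25% at least 2 times. None of the 4 motifs was found in the Timp2 window, whose GC content was 68.0% against 54.4% for Timp1 and a median of 52.4% for all promoters. A match of letters is a description and does not show a bound site.

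Over all kept cells, 5 of the 8 genes were more than 2-fold higher in the ISO library and 1 was more than 2-fold lower, where 6.90% and 31.5% of the 15976 genes with at least 20 UMIs were. The inhibitor Timp1 had the largest ratio of the 8, with 2.40 CPM against 161 CPM in ISO (log2 ratio 6.06, interval 5.79 to 6.37). Timp2 went the other way, from 269 to 78.0 CPM (log2 ratio −1.79, interval −1.84 to −1.74). The library therefore exchanged its leading inhibitor transcript: Timp1 made up 0.883% of the Timp1 and Timp2 UMIs in the control and 67.4% in the ISO library. Among the proteases, Mmp19 stood at 2.04 and 58.4 CPM, Mmp14 at 10.3 and 87.3 CPM, and Mmp8 at 13.5 and 68.4 CPM. Adam8 stood at 34.0 and 263 CPM and was the most abundant of the 8 in the ISO library. The gelatinase Mmp9 was under the 2-fold limit, at 48.4 and 94.4 CPM (log2 ratio 0.97). Mmp12 was close to level, at 34.4 and 29.1 CPM, and its direction turned when each cell was given the same weight (log2 ratio 0.45), when cells were thinned to 1000 UMIs (0.36), or when ratios were centered on all genes (0.28). The median log2 ratio of all genes was −0.52, and it was between −0.20 and 0.16 in the 5 main classes. The libraries also differ in their mix of cells, so the levels within classes are given next.

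**Figure D1:**
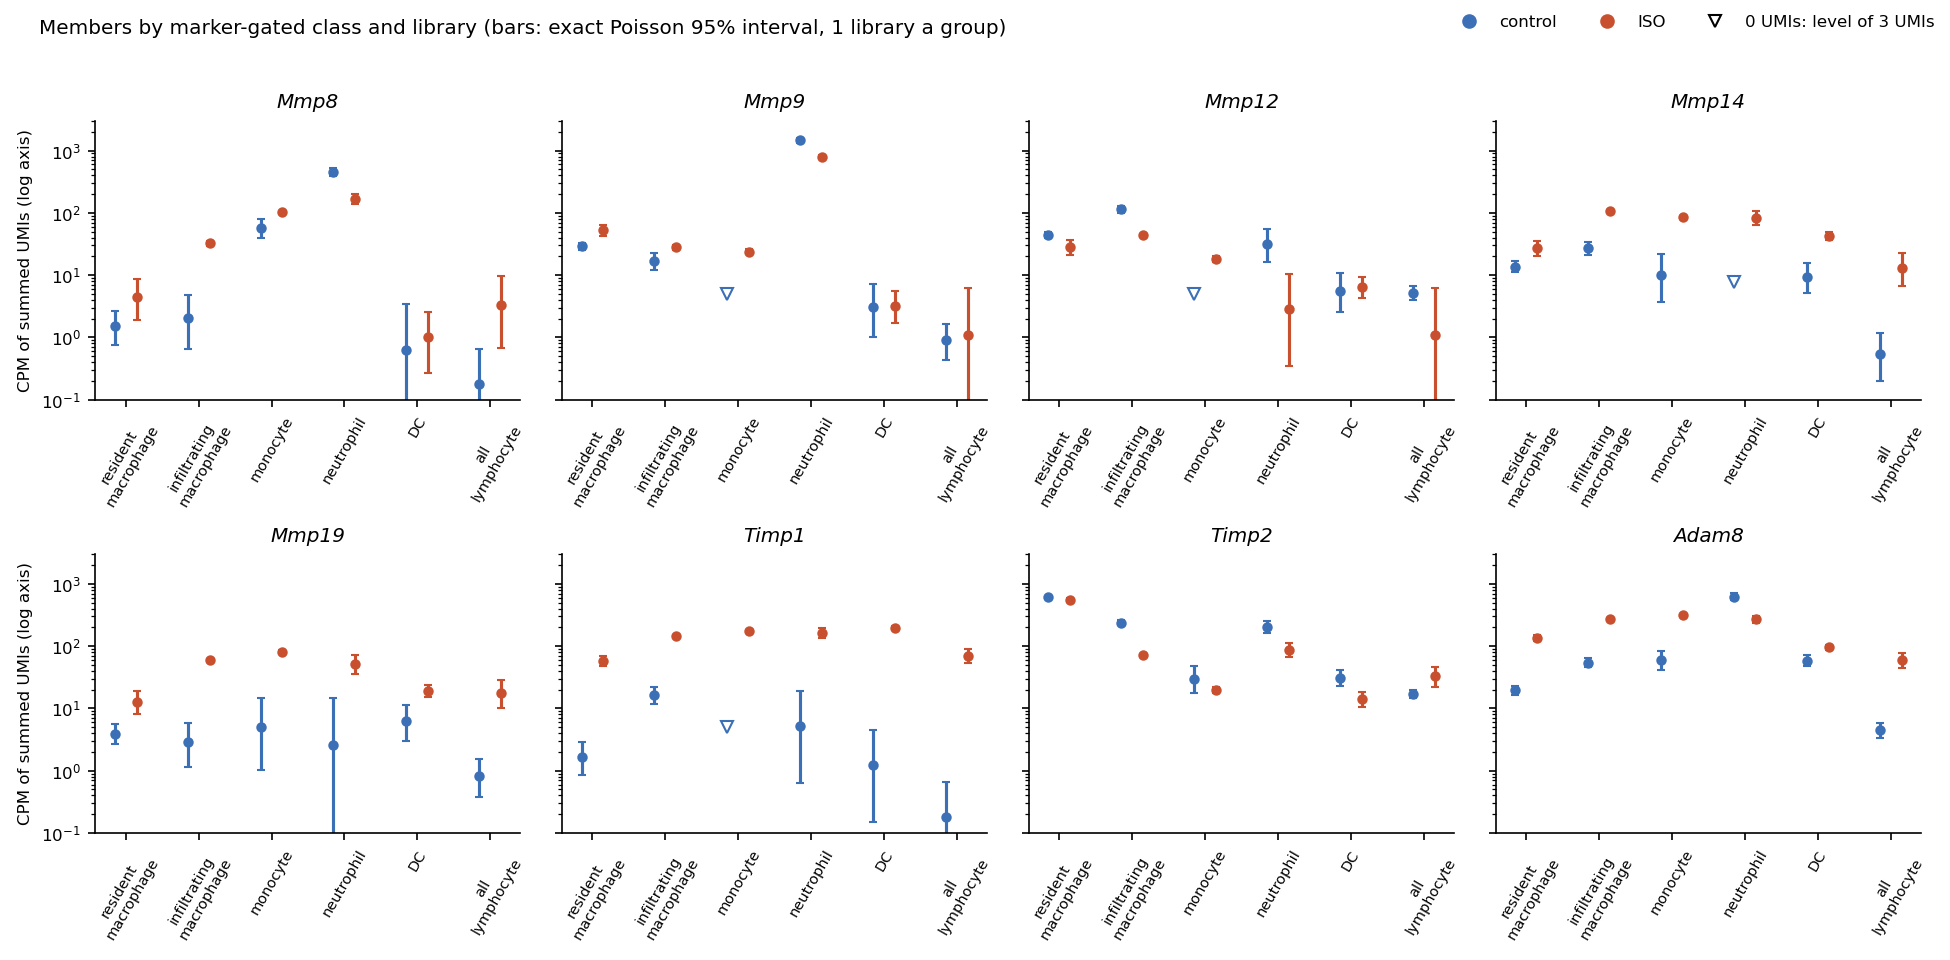
CPM of each gene (log axis) in resident macrophage-like, infiltrating macrophage-like, monocyte-like, neutrophil-like, DC-like, and all lymphocyte-like cells of the control (blue) and ISO (red) library, 1 library each. Points are CPM of summed UMIs, bars are exact Poisson 95% intervals that may run off the lower edge, and open triangles stand at the level of 3 UMIs where 0 were counted. Timp1 was higher in ISO in every class shown, Timp2 was highest in resident macrophage-like cells of both libraries, and Mmp9 reached 791 CPM or more only in neutrophil-like cells.

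The collagenase Mmp8, which cleaves fibrillar collagen and is best known from neutrophil granules, was highest in neutrophil-like cells of both libraries, at 457 CPM in the control (interval 391.8 to 530) and 168 CPM in ISO (139 to 201). In monocyte-like cells, it stood at 56.6 CPM (39.2 to 79.1) and 103.4 CPM (98.3 to 109). In the 59 ISO monocyte-like cells with under 1000 CPM of the macrophage panel, however, Mmp8 stood at 33.0 CPM (18.5 to 54.4), and only 6 control cells were under that limit. Infiltrating macrophage-like cells had 2.04 CPM in the control, from 5 UMIs, and 32.5 CPM in ISO, from 577 UMIs (log2 ratio 3.86, interval 2.76 to 5.62). That log2 ratio was 1.41 with barcodes of 2 lineages included and 1.14 after thinning to 1000 UMIs per cell. Monocyte-like and infiltrating macrophage-like cells were thus higher in the ISO library, with intervals that did not overlap. In resident macrophage-like cells, the level was 1.499 and 4.40 CPM, from 11 and 8 UMIs. Monocyte-like cells were 29.1% of the ISO cells and 1.31% of the control cells, and they held 41.7% and 6.04% of the Mmp8 UMIs of these libraries. Barcodes with neutrophil and phagocyte markers held 36.1% of the Mmp8 UMIs in each library, with 15.5% of all ISO and 4.76% of all control UMIs. Neutrophil-like cells held 3.11% of the Mmp8 UMIs in ISO and 31.1% in the control.

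The gelatinase Mmp9, which cleaves denatured collagen and basement membrane collagen, was far higher in neutrophil-like cells than in the other 4 main classes of both libraries. It stood at 1462 CPM in control (1344 to 1589) and 791 CPM in ISO neutrophil-like cells (727 to 860), against 28.9 and 52.8 CPM in resident macrophage-like cells and 16.7 and 28.1 CPM in infiltrating macrophage-like cells. Monocyte-like cells had 0 Mmp9 UMIs in the control, where 3 UMIs would be 4.99 CPM, and 23.9 CPM in ISO, which is at least 2.26 higher on the log2 scale. The log2 ratio of 0.74 in infiltrating macrophage-like cells was 0.02 with barcodes of 2 lineages included and 2.31 in clusters. A few cells carried much of the Mmp9 of control resident macrophage-like cells, where 10 cells held 54.2% of the 212 UMIs. Barcodes of 2 lineages held 1184 of the 2014 Mmp9 UMIs of the control library. After thinning to 1000 UMIs, 76.1% of control and 51.1% of ISO neutrophil-like cells had an Mmp9 UMI, and 0 of 1931 control B cell-like cells did, where 3 cells would be 0.155%, which limits the cells with a UMI at this depth and not the cells that express the gene. Without thinning, the shares were 91.5% and 92.4% of neutrophil-like cells, with a median of 2728 and 4940 UMIs per cell, and 0.207% of B cell-like cells, with a median of 3234.

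The difference between the libraries in neutrophil-like cells depended on how the class was drawn. In neutrophil-like cells, 3 of the 7 genes with at least 20 UMIs were more than 2-fold higher in ISO and 3 were more than 2-fold lower, where 24.1% and 12.7% of all genes were. ISO neutrophil-like cells also held transcripts of other myeloid cells, with 740 CPM of Arg1, which had 0 UMIs in control neutrophil-like cells, and with 411 CPM of Ccr2 against 75.7 CPM. The macrophage panel stood at 580 CPM in control and 1199 CPM in ISO neutrophil-like cells, and the neutrophil panel at 104676 and 45882 CPM. Among neutrophil-like cells with under 500 CPM of the macrophage panel, 61 control and 27 ISO cells, Mmp9 stood at 1521 and 1771 CPM, Mmp8 at 570 and 388 CPM, and Adam8 at 699 and 255 CPM. Timp1 then had 0 and 2 UMIs and Mmp14 had 0 and 3 UMIs. Clusters of neutrophil-like cells, with 147 control and 88 ISO cells, gave Mmp9 at 1182 and 1690 CPM, Mmp8 at 384 and 527 CPM, and Adam8 at 523 and 245 CPM, and they held 2 and 1 Timp1 UMIs. Adam8 was lower in ISO in all 3 definitions of the class. The direction of Mmp9 and Mmp8 turned between them, and Timp1 was near 0 under the limit of 500 CPM and in clusters. The clusters are not a part of the gated class, with which they shared 113 control and 55 ISO cells. The part of other cells in the levels of the whole class was not tested.

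The elastase Mmp12, which degrades elastin and is a macrophage gene, was the highest of the 5 main classes in infiltrating macrophage-like cells, at 113 CPM in the control (100 to 127) and 43.4 CPM in ISO (40.4 to 46.6). Macrophage-like cells with equal resident and infiltrating panels, 127 control and 32 ISO cells, stood above them, at 215 CPM (181 to 254) and 183 CPM (133 to 244). Resident macrophage-like cells had 44.7 CPM (39.98 to 49.8) and 28.1 CPM (20.9 to 36.9). Monocyte-like cells had 0 UMIs in the control and 18.4 CPM in ISO, at least 1.88 higher on the log2 scale. Much of the Mmp12 lay in few cells. In control infiltrating macrophage-like cells, 37 of 189 cells held its 278 UMIs and 10 cells held 71.9% of them. Of the 54 Mmp12 UMIs in control T cell-like cells, 53 lay in 1 cell, and the 12 UMIs of control neutrophil-like cells also lay in 1 cell. In clusters in place of gates, the log2 ratio in infiltrating macrophage-like cells was −0.50 instead of −1.39.

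Mmp14, a membrane-anchored collagenase that also activates pro-Mmp2 at the cell surface together with Timp2, was higher in ISO in each of the 5 main classes, neutrophil-like cells included, with 0 and 58 UMIs and the limit given above. Infiltrating macrophage-like cells had 27.3 CPM in the control (21.2 to 34.7) and 108 CPM in ISO (102.9 to 113), and monocyte-like cells had 9.99 CPM (3.66 to 21.7) and 85.6 CPM (81.1 to 90.4). DC-like cells had 9.36 CPM (5.24 to 15.4) and 43.1 CPM (36.9 to 50.04), or 11.7 and 21.6 CPM among those with under 500 CPM of the macrophage panel. The difference was smallest in resident macrophage-like cells, at 13.8 and 27.0 CPM (log2 ratio 0.98, interval 0.45 to 1.48). There it did not outlast the subtraction of the level in B cell-like cells, which gave −1.43, and the ISO B cell-like level rests on 4 UMIs in 43 cells. Unlike Mmp12, Mmp14 was spread over many cells: 54.4% of ISO infiltrating macrophage-like cells had at least 1 UMI, or 10.6% after thinning to 1000 UMIs, against 0 of 43 ISO B cell-like cells.

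Mmp19, a secreted Mmp with basement membrane substrates, had only 85 UMIs in the control library and 3237 in the ISO library. Monocyte-like cells had 4.99 CPM in the control, from 3 UMIs, and 81.4 CPM in ISO (log2 ratio 3.81, interval 2.48 to 6.31), and infiltrating macrophage-like cells had 2.85 CPM, from 7 UMIs, and 59.3 CPM (log2 ratio 4.28, interval 3.33 to 5.69). DC-like cells had 6.24 and 19.2 CPM, and resident macrophage-like cells had 3.95 and 12.7 CPM. Group 2 innate lymphoid (ILC2)-like cells of the ISO library, 92 cells, stood at 28.2 CPM, from 11 UMIs. ISO B cell-like, T cell-like, and NK cell-like cells held 2, 3, and 0 UMIs. The levels of ISO DC-like and resident macrophage-like cells were thus not above that of every lymphocyte-like class. In ISO monocyte-like cells with under 1000 CPM of the macrophage panel, Mmp19 stood at 48.4 CPM (30.3 to 73.3) and Mmp14 at 35.2 CPM (20.1 to 57.1). Neutrophil-like cells set aside, the order among ISO cells was monocyte-like, infiltrating macrophage-like, DC-like, and resident macrophage-like, with overlapping intervals only for the last pair (15.1 to 24.0 and 8.02 to 19.0).

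Timp1, the inducible inhibitor of most secreted Mmps, was nearly absent from control leukocytes. Its 100 control UMIs lay in 40 of 5641 cells, and 40 of the UMIs lay in 9 infiltrating macrophage-like cells. A further 14 lay in the class of 28 stromal-like cells, gated by fibroblast, endothelial, and mural markers, which held 0.419% of all control UMIs. In ISO, 13 stromal-like cells held 118 Timp1 UMIs, or 1.32% of them, with 0.120% of all UMIs. Resident macrophage-like cells stood at 1.63 CPM in the control and 57.8 CPM in ISO (log2 ratio 5.09), infiltrating macrophage-like cells at 16.3 and 147 CPM (3.15), and DC-like cells at 1.25 CPM, from 2 UMIs, and 193 CPM (6.95, interval 5.42 to 10.3). In each of these classes, the intervals of the libraries did not overlap. Monocyte-like cells had 0 Timp1 UMIs in the control, where 3 UMIs would be 4.99 CPM, and 178 CPM in ISO (171 to 184), at least 5.15 higher on the log2 scale. The 201 ISO monocyte-like cells with under 2000 CPM of the macrophage panel stood at 215 CPM, against 0 UMIs in 24 control cells. Below that, Timp1 was lower, at 55.0 CPM (35.6 to 81.2) in the 59 ISO cells with under 1000 CPM and at 19.4 CPM, from 3 UMIs, in the 22 with under 500 CPM. The DC-like difference was also present among those with under 500 CPM of the macrophage panel, at 1.79 and 98.2 CPM from 2 and 191 UMIs. After thinning to 1000 UMIs, 11.4% of ISO monocyte-like, 9.34% of infiltrating macrophage-like, and 14.4% of DC-like cells had a Timp1 UMI, against 1.52% of 198 ISO lymphocyte-like cells (0.314% to 4.36%). The 4.19% of ISO resident macrophage-like cells (1.93% to 7.80%) was not apart from that background. Without thinning, the shares were 36.5%, 39.0%, 37.8%, and 6.57%, and the first 3 classes had a median of 8112.5, 8890, and 8500 UMIs per cell. The lymphocyte-like cells stood at 70.1 CPM in ISO, and 13 of them held the 64 UMIs. The highest level of any large group was that of the 339 ISO cells that passed no gate, at 351 CPM (330 to 372), whose H2-Ab1, an MHC class II gene, stood at 4504 CPM. The 111 control cells that passed no gate were different cells, with 858 CPM of the mast cell tryptase Tpsb2, so the libraries were not compared there.

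Timp2, the constitutive inhibitor, marked the resident macrophage-like cells in both libraries. They stood at 618 CPM in the control (600.5 to 637) and 556 CPM in ISO (522 to 591), a log2 ratio of −0.15 (interval −0.25 to −0.06) that was 0.05 with barcodes of 2 lineages included. Infiltrating macrophage-like cells had 239 CPM (220 to 259) and 72.0 CPM (68.1 to 76.0), a log2 ratio of −1.73. Monocyte-like cells had 29.96 and 19.5 CPM, with intervals that overlapped, and DC-like cells had 31.2 and 13.96 CPM. Neutrophil-like cells had 206 and 88.4 CPM. Nonclassical monocyte-like cells of the control, 82 cells, stood at 248 CPM, and control NK cell-like cells at 62.7 CPM. The few stromal-like cells held 104 control and 41 ISO Timp2 UMIs. These were 0.927% and 0.948% of the Timp2 UMIs, against 0.419% and 0.120% of all UMIs, so Timp2 was not particular to resident macrophage-like cells. The difference was thus small in resident and more than 2-fold in infiltrating macrophage-like cells. When the ISO levels of each class were weighted by the control library's shares of UMIs, Timp2 stood at 174 CPM, between the 269 CPM of the control and the 78.0 CPM of the ISO library, and control levels at the ISO shares gave 206 CPM. The infiltrating macrophage-like cells of the libraries differed in other ways as well, with 2667 CPM of C1qa in the control against 972 CPM in ISO, 8056 against 1483 CPM of H2-Ab1, and 28.9 against 737 CPM of Arg1, a gene of the panel that defines them. Whether the same cells or other cells carry the lower Timp2 level cannot be told apart with 1 library per group.

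Adam8, the leukocyte sheddase, was higher in ISO in resident macrophage-like cells (19.6 and 135 CPM, log2 ratio 2.78), infiltrating macrophage-like cells (54.6 and 273 CPM, 2.32), and monocyte-like cells (59.9 and 319 CPM, 2.39). Its intervals in these classes did not overlap between the libraries. The log2 ratio in DC-like cells was 0.71, with 58.7 and 96.2 CPM, and it was 0.18 among those with under 500 CPM of the macrophage panel and −0.96 after subtraction of the B cell-like level, which rests on 12 UMIs in 43 ISO cells. In neutrophil-like cells, Adam8 was lower in ISO, at 624 CPM (547 to 708) and 269 CPM (232 to 311). Among the 5 main classes, it was therefore highest in neutrophil-like cells of the control and in monocyte-like cells of the ISO library. ISO monocyte-like cells with under 2000 CPM of the macrophage panel stood at 243 CPM of Adam8, against 41.4 CPM in the control, and those with under 1000 and under 500 CPM stood at 132 and 32.3 CPM. After thinning to 1000 UMIs, 0.611% of control and 11.6% of ISO resident macrophage-like cells had an Adam8 UMI, against 0 of 1931 control and 2 of 43 ISO B cell-like cells.

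**Figure D2:**
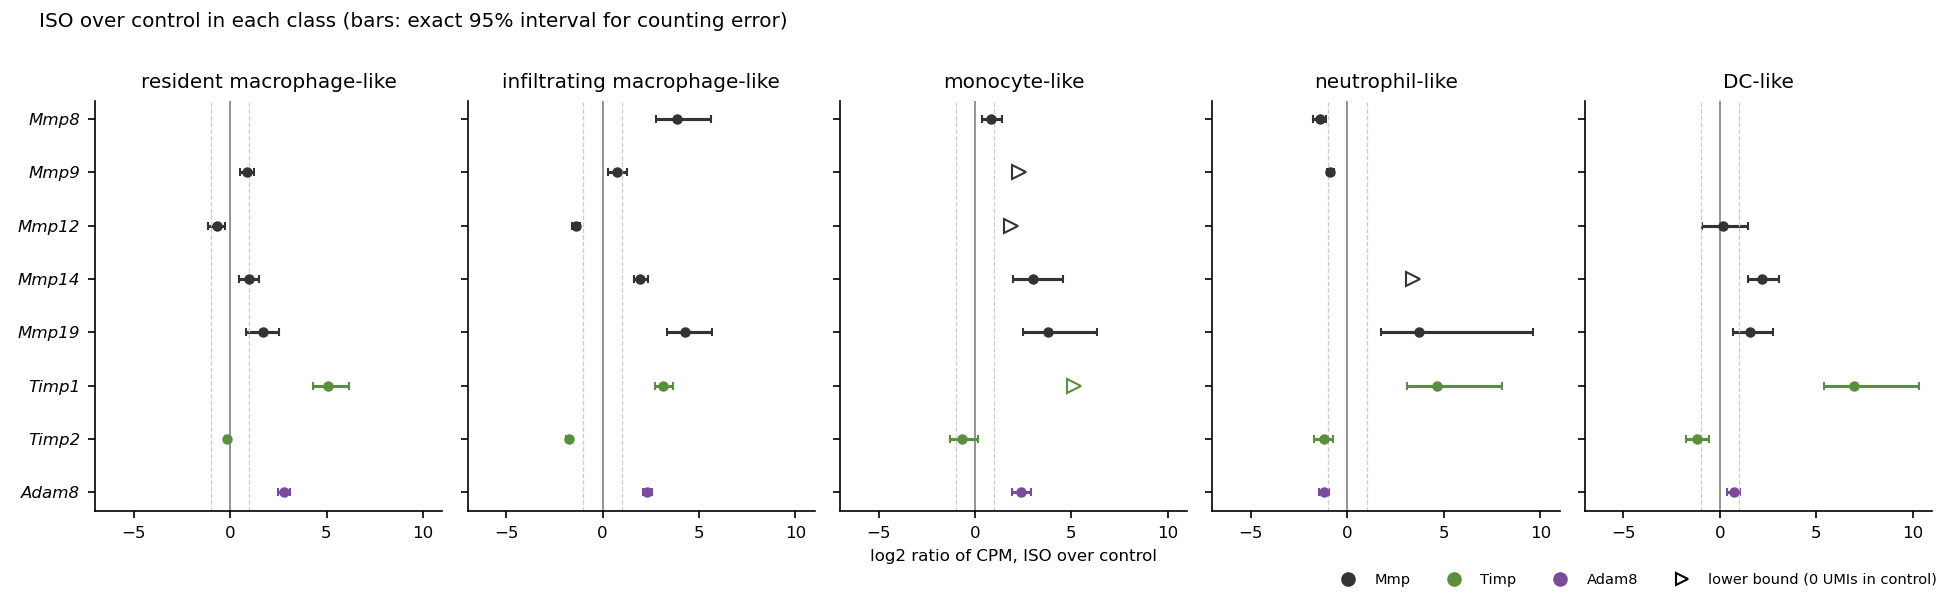
Log2 ratio of CPM, ISO over control, of each gene with at least 20 UMIs in resident macrophage-like, infiltrating macrophage-like, monocyte-like, neutrophil-like, and DC-like cells. Bars are exact 95% intervals for counting error, open triangles are lower bounds where the control had 0 UMIs, and dashed lines mark 2-fold. Timp1 lies to the right of 2-fold in all 5 classes, and Mmp8, Mmp9, and Adam8 lie to the left of 0 in neutrophil-like cells and to the right of 0 in monocyte-like cells.

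Counted over the genes with at least 20 UMIs, 3 of 7 in resident macrophage-like cells (Mmp19, Timp1, and Adam8) were more than 2-fold higher in ISO, where 6.71% of all genes were, and 0 of 7 were more than 2-fold lower, where 10.1% were. In infiltrating macrophage-like cells, 5 of 8 were higher, where 8.06% of all genes were, and 2 of 8 (Mmp12 and Timp2) were lower, where 18.8% were. In monocyte-like cells, 6 of 8 were higher, where 12.8% of all genes were, and 0 of 8 were lower, where 18.4% were. In DC-like cells, 3 of 6 (Mmp14, Mmp19, and Timp1) were higher, where 6.12% of all genes were, and 1 of 6 (Timp2) was lower, where 12.1% were. Mmp19 and Timp1 were past 2-fold in each of these 4 classes. The limits given above apply to Mmp19 in resident macrophage-like and DC-like cells and to Timp1 in resident macrophage-like cells. The median log2 ratio of the genes was 0.98 in resident and 2.14 in infiltrating macrophage-like cells, against −0.01 and −0.20 for all genes.

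The balance of protease and inhibitor transcripts was taken as the UMIs of the 5 Mmps over the UMIs of Timp1 and Timp2. Over all kept cells, it was 0.399 in the control (0.386 to 0.413) and 1.41 in the ISO library (1.38 to 1.44), a 3.53-fold difference. Counted over these genes, the library as a whole thus passed from an excess of inhibitor to an excess of protease transcripts. Mmp13, at 72.3 CPM in the control and 9.23 CPM in ISO, is not among them. With all Mmp genes over all 4 Timps, the difference was smaller, as given in the last section. The classes did not share 1 direction. In infiltrating macrophage-like cells, the balance was 0.636 in the control (0.559 to 0.722) and 1.24 in ISO (1.19 to 1.29), and in resident macrophage-like cells it was 0.150 (0.138 to 0.162) and 0.204 (0.176 to 0.235). With all Mmp genes over all 4 Timps, the log2 difference was 0.17 in infiltrating macrophage-like cells and turned to −0.56 in resident macrophage-like cells, where Mmp13 was lower in ISO. In DC-like cells, the balance was lower in ISO, at 0.769 (0.496 to 1.18) and 0.352 (0.307 to 0.403), where Timp1 made up 93.3% of the ISO inhibitor UMIs. Monocyte-like cells had 2.39 in the control (1.35 to 4.40) and 1.59 in ISO (1.52 to 1.66), and these intervals overlapped. Neutrophil-like cells had the highest balance in both libraries, at 9.23 (7.33 to 11.8) and 4.37 (3.70 to 5.18). The log2 difference of −1.08 turned to 0.25 among those with under 500 CPM of the macrophage panel and to 0.39 in clusters. Resident macrophage-like cells had the lowest balance of the 5 classes in both libraries.

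**Figure D3:**
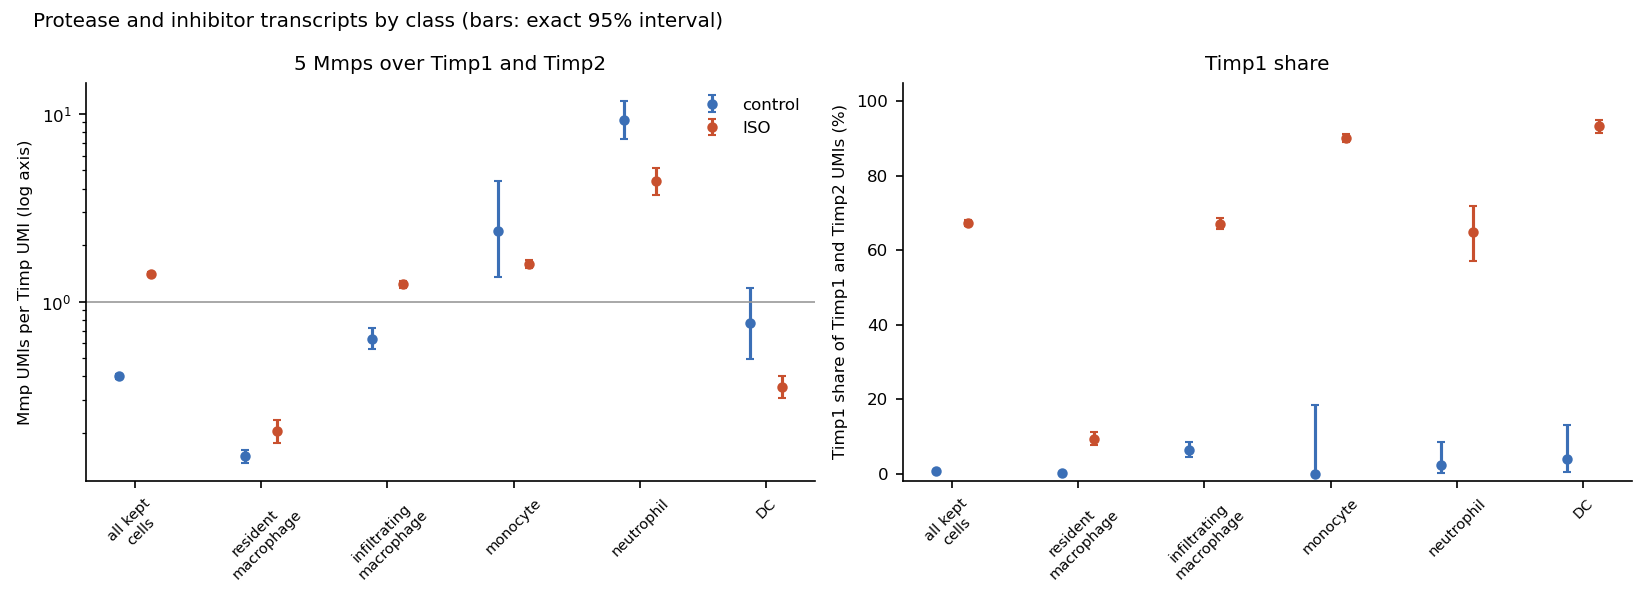
Left, UMIs of Mmp8, Mmp9, Mmp12, Mmp14, and Mmp19 per UMI of Timp1 and Timp2 (log axis) in all kept cells and in the 5 main classes. Right, Timp1 as a percent of the Timp1 and Timp2 UMIs of the same cells, for the control (blue) and ISO (red) library. Bars are exact 95% intervals. The balance lies above 1 in ISO for all kept cells, infiltrating macrophage-like, monocyte-like, and neutrophil-like cells, and the Timp1 share in ISO is 9.42% in resident macrophage-like cells and 64.8% or more in the other groups.

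The exchange of inhibitors differed in extent between the classes. Timp1 made up 0.264% of the inhibitor UMIs of resident macrophage-like cells in the control and 9.42% in ISO, so Timp2 remained their main inhibitor transcript. In infiltrating macrophage-like cells, the share was 6.39% and 67.1%. Monocyte-like cells passed from 0 of 18 inhibitor UMIs, with an interval up to 18.5%, to 90.1%, and DC-like cells from 3.85% to 93.3%. In neutrophil-like cells, it was 2.47% and 64.8%, with the limit given above on the Timp1 of this class.

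By source, monocyte-like and infiltrating macrophage-like cells of the ISO library held 59.5% of its Timp1, 66.8% of its Adam8, 66.6% of its Mmp14, 71.0% of its Mmp19, 65.2% of its Mmp12, and 56.9% of its Mmp8 UMIs. These classes held 27.6% and 32.0% of all UMIs of that library. The shares of Adam8, Mmp14, Mmp19, and Mmp12 were above that sum, and those of Timp1 and Mmp8 were not. The ISO cells that passed no gate held 1073 of the 8944 Timp1 UMIs and 5.52% of all UMIs. Mmp9 came from other cells: neutrophil-like cells and barcodes with neutrophil and phagocyte markers held 58.5% of it in the control and 73.8% in ISO. Most of that share in ISO, 63.2%, lay in the barcodes with both sets of markers, which held 15.5% of all UMIs. In the control, resident macrophage-like cells held 40.4% of the Timp2 UMIs and 17.6% of all UMIs, and barcodes with lymphocyte and phagocyte markers held a further 30.1%. In the ISO library, resident macrophage-like cells were 3.95% of cells and still held 23.4% of the Timp2 UMIs.

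**Figure D4:**
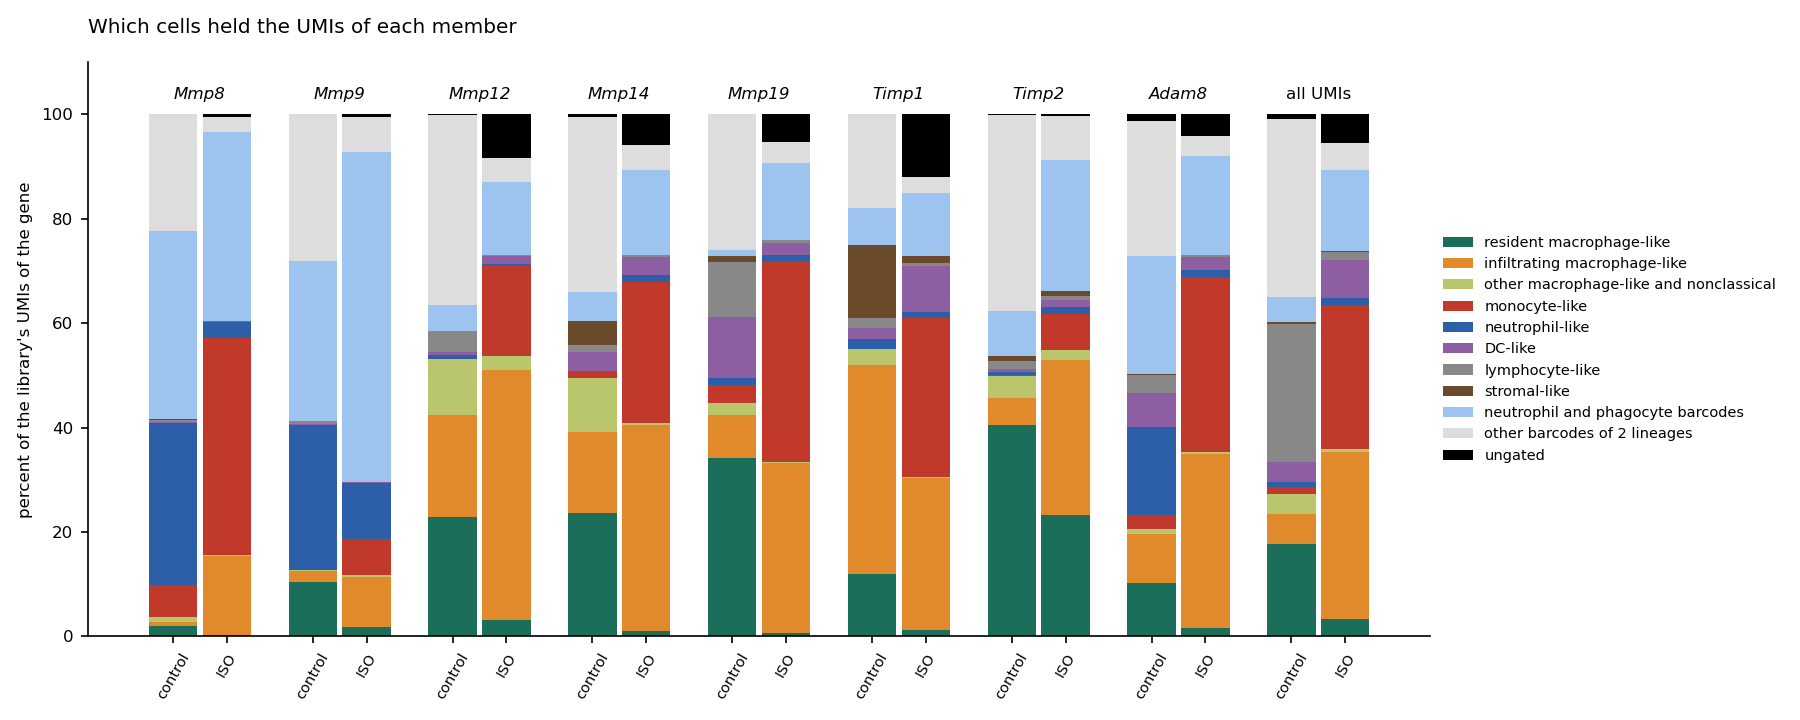
Percent of each gene's UMIs found in each class of the control and the ISO library, with the percent of all UMIs in the last pair of bars. Green, resident macrophage-like cells; orange, infiltrating macrophage-like cells; red, monocyte-like cells; dark blue, neutrophil-like cells; light blue, barcodes with neutrophil and phagocyte markers. Most Mmp9 lies in the blue parts of both bars, the green part of Timp2 is the largest of the 8 genes in both libraries, and the orange and red parts hold 59.5% of Timp1 and 71.0% of Mmp19 in ISO.

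Within single ISO cells thinned to 5000 UMIs, Timp1 was found together with proteases as often as their separate frequencies give, or more often. Of 1504 infiltrating macrophage-like cells, 11.6% (10.1% to 13.4%) had UMIs of both Timp1 and Mmp14, against 11.1% if the genes were independent. Timp1 and Mmp19 were found together in 8.38% (7.03% to 9.89%), against 6.33%, and the inhibitors Timp1 and Timp2 in 4.85% (3.82% to 6.06%), against 6.37%. In these cells, Timp1 and Mmp19 thus met more often and Timp1 and Timp2 less often than independence gives, with intervals that left out that value. Of 1476 monocyte-like cells, 9.62% (8.16% to 11.2%) had Timp1 and Mmp14, against 7.93%, and the inhibitors met in 2.57%, against 2.59%. Of 409 DC-like cells, 6.85% (4.60% to 9.74%) had Timp1 and Mmp14, against 4.47%, and 4.89% (3.01% to 7.45%) had Timp1 and Mmp19, against 2.39%. The pair of Timp1 and Mmp14 was thus above independence in monocyte-like and DC-like cells and within its interval in infiltrating macrophage-like cells. Cells of a library are not replicates, so these intervals describe 1 library.

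Across the 25 sums of a class and library with at least 50 cells, the genes most like Timp1 in log2(CPM + 1) were Vdr (Pearson r = 0.95), AA467197 (0.94), and Spp1 (0.94), and Mmp19 was most like Dmkn (0.96) and Pdpn (0.94). Timp2 was most like Fcrls (0.92), a gene of resident macrophages and microglia, and Cd163, a macrophage scavenger receptor, was also among its 5 most similar genes (0.90). Mmp9 was most like S100a9 (0.95) and S100a8 (0.94), and Mmp8 most like Slfn4 (0.96). Mmp14 was most like Anxa4 (0.94), Mmp12 most like the metallothionein gene Mt2 (0.89), and Adam8 most like Txn1 (0.89). Between the genes described here, r was 0.92 for Timp1 with Mmp19, 0.80 for Mmp8 with Mmp9, and −0.12 for Timp1 with Timp2. The sums share libraries and differ in depth, and 11271 genes were compared, so these values are descriptions.

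Of the 16 other Mmp genes, 9 had at least 20 UMIs over all kept cells, 0 were more than 2-fold higher in ISO, and 6 were more than 2-fold lower, where 6.90% and 31.5% of all genes were. The collagenase Mmp13 was the most abundant of them, at 72.3 CPM in the control and 9.23 CPM in ISO. It was lower in infiltrating macrophage-like cells (124 and 9.34 CPM, log2 ratio −3.73) and in resident macrophage-like cells (127 and 25.9 CPM, log2 ratio −2.28). In control macrophage-like cells of both classes, Mmp13 thus stood above each of the 5 Mmps, and in ISO infiltrating macrophage-like cells it stood below each of them. Of the other inhibitors, Timp3 stood at 1.20 and 0.56 CPM and Timp4 at 0.89 and 1.39 CPM. The membrane inhibitor Reck stood at 2.14 and 0.40 CPM, and the leukocyte protease inhibitor Slpi, which acts on serine proteases, at 95.2 and 607 CPM. Slpi belongs to the infiltrating macrophage panel, so its level in that class is no result.

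Among the other Adam and Adamts genes, 1 of 11 with at least 20 UMIs was more than 2-fold higher in ISO over all kept cells and 5 were lower, where 6.90% and 31.5% of all genes were. The sheddases Adam10 (81.1 and 102.1 CPM) and Adam17 (87.5 and 106 CPM) differed by less than 2-fold, and Adam19 stood at 52.6 and 16.9 CPM. Adam8 was thus above each of these 3 in the ISO library. Of the activators and regulators of Mmps, 7 of 12 were higher and 0 lower over the same cells, where 6.90% and 31.5% of all genes were, among them Lcn2 (21.4 and 241 CPM), whose product binds Mmp9, Plaur, the urokinase receptor (204 and 534 CPM), and Cd44, a hyaluronan receptor (296 and 886 CPM). The libraries differ in their mix of cells, and the ratios differed between classes. The log2 ratio of Plaur was 0.86 in resident and 1.38 in infiltrating macrophage-like cells. It was 0.01 in monocyte-like, 0.23 in neutrophil-like, and −0.10 in DC-like cells. In the same order, that of Cd44 was 0.49, 0.96, 0.14, −0.28, and −0.10. Lcn2 was more than 2-fold higher in both macrophage-like classes and in monocyte-like cells, with a log2 ratio of 0.48 in neutrophil-like cells. Of the matrix genes, 5 of 11 were higher and 3 lower over all kept cells, where 6.90% and 31.5% of all genes were. In infiltrating macrophage-like cells, 5 of 8 were higher, where 8.06% of all genes were. Without Spp1, a gene of the panel that defines that class, 4 of 7 were. Of those 4, Vcan belongs to the monocyte panel, which separates that class from monocyte-like cells, so its level is no result either. In infiltrating macrophage-like cells, fibronectin (Fn1) stood at 99.0 and 2347 CPM, thrombospondin 1 (Thbs1) at 241 and 1751 CPM, and Tgfbi at 481 and 2580.5 CPM. Osteopontin (Spp1), at 69.7 and 7946 CPM, is no result there. Of the 12 genes of the neutrophil granule list, 9 of 11 were higher and 0 lower over all kept cells, where 6.90% and 31.5% of all genes were. The libraries differ in their mix of cells, so this count does not describe neutrophils alone. In neutrophil-like cells, 2 of 7 were higher (Lyz2 and Cybb) and 2 lower (Padi4 and Retnlg), where 24.1% and 12.7% of all genes were. Padi4 stood at 230 and 59.9 CPM. Retnlg belongs to the neutrophil panel, so its level in that class is no result. The limit given above on transcripts of other myeloid cells in this class applies here too.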

How the data were processed

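The authors deposited UMI counts per gene and cell, as 1 table per library, and these whole-number counts were used without normalization. Per the labels and methods, reads of the 10x 3′ V3 libraries were processed with bcl2fastq 2.19.1.403, UMI-tools 1.0.0, STAR 2.7.3a, and featureCounts 1.6.4 on mm10, and the strand setting of the counting is not given in the sources used here. Cells with over 500 and under 6000 genes and under 25% mitochondrial UMIs were kept, as in the study, which left 5641 of 5927 control and 5437 of 5514 ISO barcodes with 41651434 and 55443553 UMIs. Classes came from summed CPM limits of marker panels, in which the infiltrating macrophage panel (Ccr2, Arg1, Spp1, Vegfa, Inhba, Slpi) holds genes that differ between the libraries. Barcodes over the limits of 2 lineages were set apart, no doublet caller was run, and doublets within a lineage remain. The 8 genes and the gene lists were chosen with earlier results of these data known. Named genes were the 8 genes, genes among the 5 most like each over class and library sums, and members of the lists with the largest levels or ratios, along with class markers chosen after their values were seen. The design has 1 library per group, so no test was made. Ratios were formed for classes with 50 or more cells in a library and called at 2-fold for genes with at least 20 UMIs in both libraries together. Intervals of simulated ratios held the true value in a mean over the simulated folds of 94.5% (DC-like) to 98.1% (monocyte-like) of genes. The simulation drew only the counting error that the intervals assume. It therefore checks the computation and says nothing of spread between cells or libraries. Limits of 500, 1000, and 2000 CPM on the macrophage panel within classes were chosen after seeing the data. Alternatives changed the gates, the filters, the scaling, the added count, and the genes in the balance. Python 3.11.15, numpy 2.4.6, scipy 1.17.1, pandas 2.3.3, scikit-learn 1.9.0, and matplotlib 3.10.9 were used. Gene positions came from GENCODE on GRCm38 and promoters from RefSeq, which matched 6 of the 8 genes (not Mmp9 and Mmp19).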

Additional observations from a re-analysis of the deposited data

Results flagged for a closer look

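Log2 ratios of ISO over control had opposite signs in different classes for 4 genes, and none of these differences between classes was tested, since each class has 1 library per group. Mmp8 had a log2 ratio of 3.86 in infiltrating macrophage-like and −1.44 in neutrophil-like cells. Mmp9 had at least 2.26 in monocyte-like and −0.89 in neutrophil-like cells. Mmp12 had at least 1.88 in monocyte-like and −1.39 in infiltrating macrophage-like cells. Adam8 had 2.78 in resident macrophage-like and −1.21 in neutrophil-like cells. Among neutrophil-like cells with under 500 CPM of the macrophage panel, Adam8 was still lower in ISO, at 699 and 255 CPM, and Mmp9 was not, at 1521 and 1771 CPM. In clusters of neutrophil-like cells, Mmp8 was higher in ISO, at 384 and 527 CPM, as was Mmp9, at 1182 and 1690 CPM.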

How the results depend on the processing

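No paired analysis was possible because each group is 1 library. Of 310 recomputed log2 ratios whose reported value was past 2-fold, 308 kept their direction and 290 stayed past 2-fold. Of 118 under 2-fold, 106 kept their direction. Alternatives that gave no value, 42 over ratios and balances, are not in these counts. They include ratios with no more than 3 UMIs left in either library. Neutrophil-like Timp1 was such a case, with 2 control and 1 ISO UMIs in clusters. Under 500 CPM of the macrophage panel, it had 0 and 2 UMIs. With clusters in place of gates, neutrophil-like Mmp8 (0.46) and Timp2 (0.14) turned direction. Neutrophil-like Mmp9, which was under 2-fold with the gate, turned as well, to 1182 CPM in control and 1690 CPM in ISO. The cause was not tested. The log2 difference of the balance also turned in neutrophil-like cells with clusters (0.39) and with under 500 CPM of the macrophage panel (0.25, chosen after seeing the data), and in resident macrophage-like cells with all Mmps over 4 Timps (−0.56). For all kept cells, that difference of 1.82 was 1.89 with at least 1000 genes and under 10% mitochondrial UMIs, 1.59 after thinning, 1.06 with all Mmps and Timps, 2.26 with Adam8 as a protease, and 2.26 with the B cell-like level subtracted. In resident macrophage-like cells, 0.44 was 1.12 with barcodes of 2 lineages, 0.79 with a stricter gate, 1.23 with Adam8, and 0.18 after the subtraction. In infiltrating macrophage-like cells, 0.96 was 0.74 with barcodes of 2 lineages, 1.85 in clusters, 1.27 after thinning, 0.17 with all Mmps and Timps, 1.55 with Adam8, and 1.41 after the subtraction. In neutrophil-like cells, −1.08 was −0.57 after thinning and −0.56 after the subtraction. With barcodes of 2 lineages placed by their highest score, monocyte-like and infiltrating macrophage-like cells held 66.9% of ISO Timp1, and in clusters 61.0%. In the same order, resident macrophage-like cells held 73.1% and 29.4% of control Timp2. Neutrophil-like cells held 39.97% of control and 48.9% of ISO Mmp9 with barcodes placed by their highest score. In clusters, the Mmp9 shares were 82.7% and 90.4%, with clusters of neutrophil and phagocyte markers counted in. The neutrophil-like cluster alone held 649 of the 2014 control and 641 of the 5236 ISO Mmp9 UMIs. Over all deposited barcodes, the share of control Timp2 was 38.5%. With at least 100 UMIs per gene, 6.09% of genes in resident macrophage-like, 11.6% in infiltrating macrophage-like, and 6.59% in DC-like cells were lower in ISO. Clusters and a stricter gate gave no value for monocyte-like cells, and a looser gate none for neutrophil-like cells, because under 50 cells were left in a library. The control monocyte-like (74 cells), ISO neutrophil-like (92 cells), and ISO B cell-like (43 cells) sums limit what could be detected.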
